A study of Mus musculus with 41 samples.

Results

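The broadest trimethylation of lysine 4 of histone H3 (H3K4me3) in serum-cultured mouse embryonic stem cells (mESC-ser) was examined in its pooled CUT&Tag peak set. In CUT&Tag a transposase tethered to an antibody inserts sequencing adapters next to the histone mark that the antibody binds. The 500 widest of the 10849 H3K4me3 peaks on chromosomes 1 to 19 were taken as broad domains, with ties broken by the larger total signal. They made up 4.61% of the peaks and covered 4.94 of 40.3 Mb (12.2%). The domains were chosen by their measured H3K4me3 width, so widths in mESC-ser describe the choice and are no result.

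All mESC samples were of the E14 line. The mESC-ser cultures were kept in DMEM with fetal bovine serum and leukemia inhibitory factor (LIF). The mESC-2i cultures received N2B27 medium with LIF, the MEK inhibitor PD0325901 and the GSK3 inhibitor CHIR99021. GAS was whole gastrocnemius muscle of female C57BL/6 mice of 8 to 12 weeks, a tissue of several cell types, and PIM were CD45+CD11b+F4/80+CD64+ macrophages sorted from calf muscle of mice of the same strain, sex and age 2 days after ischemia was induced by ligation of the hindlimb artery. Stem cells entered the assay as whole cells and GAS and PIM as nuclei, so that the difference between these groups and the difference in input cannot be told apart. Each set compared here pooled 2 samples, except the H3K27ac sets of mESC-ser and PIM with 1 sample each, and no value here has a replicate error. Shares therefore carry 95% Wilson intervals and differences between shares 95% Newcombe intervals, given in parentheses, which cover counting error over peaks only. Neighbouring peaks are not independent, and no p-value was computed.

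The sets were compared with marker genes of their labels. An H3K4me3 peak lay on a start site of 5 of 6 stem cell genes (Pou5f1, Nanog, Sox2, Zfp42 and Tdgf1, but not Dppa4) in mESC-ser and of 6 of 6 in mESC-2i, and of none of the 6 in GAS or PIM. All of 6 muscle genes, such as Ckm and Acta1, had one in GAS, and all of 6 macrophage genes, such as Csf1r and Adgre1, had one in PIM. None of the 6 macrophage genes was marked in GAS. The separation was not complete, since the muscle gene Mylpf was also marked in mESC-ser, mESC-2i and PIM, the muscle regulator Myod1 in mESC-2i and the macrophage gene Cd68 in mESC-ser. The H3K4me3 sets held 10849 (mESC-ser), 18806 (mESC-2i), 27814 (GAS) and 24861 (PIM) peaks over 40.3, 48.6, 51.1 and 63.7 Mb.

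H3K4me3 is deposited at active and poised promoters by the SET1 and MLL enzyme families, and most marked promoters carry it over a short stretch around the transcription start site (TSS). A small group of genes carries it over many kilobases, and such broad domains are known for housekeeping genes of high output and for genes that define the identity of a cell. In stem cells a share of promoters carries H3K4me3 together with H3K27me3, the mark of Polycomb repression, and such bivalent promoters often belong to developmental regulators rich in CpG dinucleotides. H3K27ac marks active promoters and enhancers, and lactylation of lysine 18 (H3K18la) is an acylation derived from lactate.

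To show the DNA in question, sequence is given at the highest H3K4me3 signal of the widest domain of each mark class defined below, of the widest domain without a coding TSS, and of the narrowest other peak that held a coding TSS. The domain without a coding TSS was added after its values had been seen. The windows are up to 300 bases around the highest signal, on the plus strand of mm10, with annotated untranslated exon bases left out, and capitals mark CpG.
Trim71 (H3K27ac only), chr9:114564370-114564543, beside the Trim71 TSS: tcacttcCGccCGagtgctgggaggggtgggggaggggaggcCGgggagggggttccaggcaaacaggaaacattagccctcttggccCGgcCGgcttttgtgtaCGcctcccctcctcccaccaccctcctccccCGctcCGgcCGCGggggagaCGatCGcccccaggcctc
Sox2 region (H3K27ac only, no coding TSS), chr3:34653911-34654210, 3506 bp from the Sox2 TSS and in no coding gene: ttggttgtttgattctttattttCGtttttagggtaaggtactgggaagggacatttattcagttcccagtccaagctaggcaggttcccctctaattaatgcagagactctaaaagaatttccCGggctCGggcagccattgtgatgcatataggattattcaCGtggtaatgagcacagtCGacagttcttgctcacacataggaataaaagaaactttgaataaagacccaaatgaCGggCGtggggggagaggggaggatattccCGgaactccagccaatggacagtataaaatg
Kdm6b (H3K27ac and H3K27me3), chr11:69409474-69409773, in an intron of Kdm6b 3902 bp from its nearest TSS: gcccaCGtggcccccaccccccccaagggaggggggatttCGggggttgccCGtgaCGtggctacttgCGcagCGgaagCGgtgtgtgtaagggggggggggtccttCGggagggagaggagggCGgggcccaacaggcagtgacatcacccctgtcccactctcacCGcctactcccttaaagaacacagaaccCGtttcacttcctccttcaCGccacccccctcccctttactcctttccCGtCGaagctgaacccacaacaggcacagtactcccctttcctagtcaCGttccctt
Ndufa4l2 and Shmt2 (H3K27me3 only), chr10:127509222-127509521, in no coding gene and 5446 bp from the Ndufa4l2 TSS: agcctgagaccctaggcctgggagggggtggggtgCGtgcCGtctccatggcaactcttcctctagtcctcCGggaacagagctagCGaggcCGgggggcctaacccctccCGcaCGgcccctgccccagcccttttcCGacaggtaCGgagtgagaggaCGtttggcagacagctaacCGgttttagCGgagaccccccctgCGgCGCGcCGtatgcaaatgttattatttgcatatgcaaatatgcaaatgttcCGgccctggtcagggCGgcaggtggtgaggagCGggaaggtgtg
Eef1d and Tigd5 (neither mark), chr15:75909557-75909734, beside the Eef1d TSS: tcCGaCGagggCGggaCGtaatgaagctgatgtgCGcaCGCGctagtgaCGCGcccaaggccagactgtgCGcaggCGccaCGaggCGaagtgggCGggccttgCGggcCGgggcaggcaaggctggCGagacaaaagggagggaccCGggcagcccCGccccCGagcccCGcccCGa
Fanca (a peak of 531 bp, not a domain), chr8:123318577-123318781, beside the Fanca TSS: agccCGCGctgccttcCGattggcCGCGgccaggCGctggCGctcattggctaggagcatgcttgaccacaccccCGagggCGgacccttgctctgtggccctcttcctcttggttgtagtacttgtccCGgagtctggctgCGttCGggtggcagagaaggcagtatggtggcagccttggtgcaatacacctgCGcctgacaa
The window of the Sox2 region held 8 CpG in 300 bp with a GC content of 44.3%, and that beside the Eef1d TSS held 22 in 178 bp with a GC content of 73.0%. The Ndufa4l2 window held 4 copies of ATGCAAAT (on either strand, overlapping no other motif searched here), the octamer bound by POU factors such as the pluripotency factor Pou5f1. This motif was searched after the sequence had been seen. It occurred in 12 of 500 domain windows (2.4%, 1.38-4.15) and in 98 of 10349 windows of the other peaks (0.947%, 0.778-1.15). The Ndufa4l2 window is itself 1 of the 12, so these shares are no independent test of the motif. The GC box GGGCGG occurred in 61.6% (57.3-65.8) of domain windows and 60.9% of the others. CCAAT occurred in 29.8% and 30.0%, TATAAA in 5.00% (3.41-7.28) and 2.70%, and CACGTG in 10.2% (7.84-13.2) and 8.13%. A match is a run of letters in a window on either strand and not a bound site.

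Domain widths ran from 7445 to 26249 bp, with a median of 8874 bp, against a median of 3181 bp in the other peaks. More than 10 kb were spanned by 157 domains, more than 15 kb by 31 and more than 20 kb by 5. At the limit of the choice, the last members were Inava (7449 bp), Gabbr1 (7448 bp) and Pcdh8 (7445 bp), and the next peaks were one of 7440 bp on chromosome 11 with no coding TSS, Serbp1 (7437 bp) and the peak shared by Socs1 and Tnp2 (7436 bp). The boundary thus cut through a continuous range of widths. Chromosome 11 gave the most domains, 97 of its 1133 peaks (8.56%), and chromosome 18 the fewest for its peaks, 6 of 296 (2.03%).

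**Figure D1:**
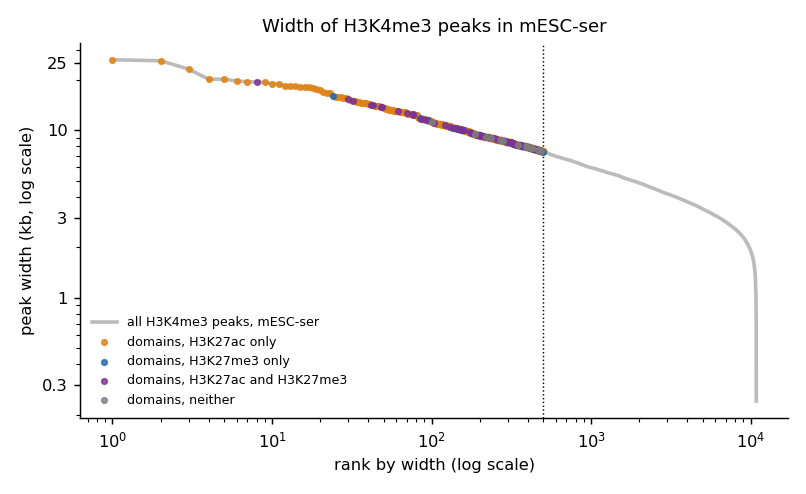
Width of each H3K4me3 peak of mESC-ser in kb against its rank by width, both on log scales; the grey line is all 10849 peaks, coloured points are the 500 domains by mark class, and the dotted line marks the limit of the choice. The widths fall without a break at rank 500.

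The widest domain, 26249 bp, lay over Trim71, a let-7 target and RNA-binding repressor of differentiation in stem cells. It was followed by Mllt6 (25896 bp) and by a domain of 23076 bp shared by Rhof and Setd1b, of which the second encodes an H3K4 methyltransferase. Then came Spsb2 and the glycolytic gene Tpi1 (20118 bp), the region beside Sox2 (20074 bp), the retinoic acid receptor gene Rarg (19608 bp), Myo10 (19404 bp), the H3K27 demethylase gene Kdm6b (19368 bp), a domain of Dalrd3, Impdh2, Ndufaf3 and Wdr6 (19231 bp), Gse1 (18849 bp) with a second domain in its gene body (18755 bp), and Irf2bpl (18329 bp). Of these 12 domains, 11 were in the class with H3K27ac and without H3K27me3, which held 78.6% of all domains, and Kdm6b carried both marks, as did 11.8% of all domains.

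Genes with a coding TSS in a domain were 581 of 20698 annotated on these chromosomes (2.81%), and 10028 (48.4%) had one in any H3K4me3 peak. A coding TSS lay in 414 of 500 domains (82.8%, 79.2-85.9), against 83.2% of all peaks, and the interval of the difference from the other peaks included 0 (-0.38 percentage points, -4.00 to 2.76). Counting every annotated transcript gave 90.4% for the domains and 88.4% for the other peaks (difference 2.00 points, -0.96 to 4.37). With 2 or more coding genes inside there were 27% of the domains and 11.2% of the other peaks. A wider region has room for more start sites, and the part of width in this difference was not tested. The number of coding genes was 0 in 86 domains, 1 in 279, 2 in 105, 3 in 25, 4 in 4 and 5 in 1.

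Among the 279 domains with 1 coding gene, H3K4me3 reached a median of 2380 bp upstream of the outermost TSS and 6605 bp downstream of it, a distance that can run past the end of a short gene. The other peaks with 1 coding gene reached 1081 bp upstream and 1956 bp downstream (n = 7448). The downstream arm was the longer one in 235 of 279 domains (84.2%) and in 81.1% of the others, so the direction was shared while the downstream share of the width was 75.3% (median) in domains and 64.7% in the others. Measuring from the outermost of several start sites lengthens the downstream arm in both sets. The genes themselves were shorter, with a median length of 15865 bp against 29094 bp.

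**Figure D2:**
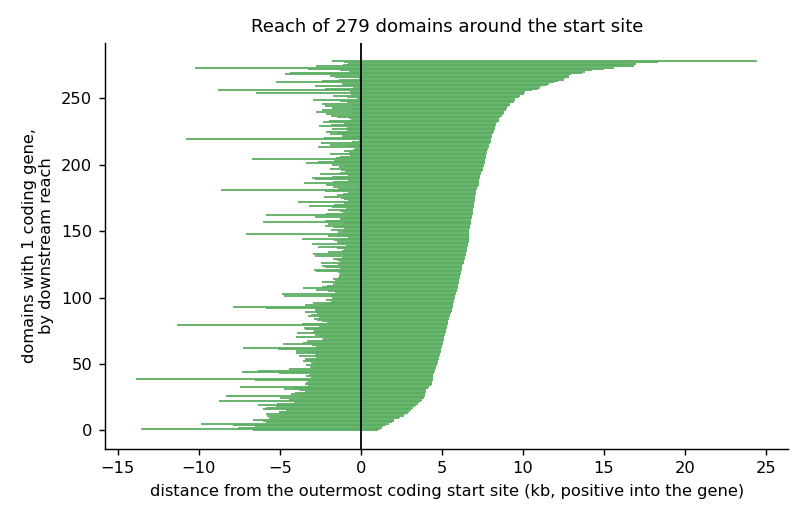
Each horizontal line is 1 of the 279 domains with 1 coding gene, drawn from its upstream to its downstream end in kb from the outermost coding start site (0), and sorted by downstream reach. The lines lie mostly to the right, with medians of 2380 bp upstream and 6605 bp downstream.

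By gene group, the cytosolic ribosomal protein genes were the largest block. Of 72, 69 had H3K4me3 at a TSS and 29 (40.3%) lay in a domain, against 2.81% of all coding genes. Their domains ran from 7563 bp (Rpl21) to 14252 bp (Rpl35), with a median of 9411 bp, and none carried H3K27me3 over 20% of its bases, against 18.8% of all domains. Several of these domains held a second coding gene. All 29 kept an H3K4me3 peak in the other cell types, with a median widest peak of 6398 bp in mESC-2i, 2997 bp in GAS and 3544 bp in PIM. Other genes of general output gave smaller shares. The shares were 3 of 15 glycolysis enzymes (Aldoa, Gapdh and Tpi1), 4 of 30 SR and hnRNP splicing genes (Hnrnpab, Hnrnpdl, Hnrnpf and Hnrnpl), 3 of 21 cell cycle genes (Ccnd1, Cdk4 and Trp53) and 1 of 38 proteasome genes (Psmb3, in a domain with Pcgf2). The lists were not sampled at random from all genes, and 93.3% of the splicing and 71.1% of the proteasome genes had H3K4me3 in some peak.

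Pluripotency factors were in domains at a share close to that of the ribosomal genes, 11 of 28 (39.3%), with 27 of 28 in some H3K4me3 peak. The widest were Tet1, which oxidises 5-methylcytosine (17794 bp), Pou5f1, the core pluripotency factor, in a domain with Cchcr1 and Tcf19 (15563 bp), the orphan receptor gene Esrrb (13943 bp) and the Nodal co-receptor gene Tdgf1 (13893 bp). Foxd3 (11828 bp), Fgf4 (10958 bp), Mycn (9342 bp), Dppa5a (8686 bp), Sall4 (8426 bp), Tbx3 (8284 bp) and Jarid2 (8283 bp) were the others. Of these 11 genes, 9 were in domains with H3K27ac only, as were 78.6% of all domains, while Foxd3 and Tbx3 had H3K27me3 over 73.3% and 91.5% of their bases and H3K27ac over 10.6% and 0%. Sox2 itself was not inside a domain, but the domain beside it started 3193 bp from its TSS. Further domains lay in or near Esrrb (9119 and 8483 bp), with no coding TSS inside.

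Genes of signalling pathways that act in these cells gave 8 of 24 (33.3%), against 2.81% of all coding genes and 5.79% of those with H3K4me3 at a TSS. They were the FGF pathway inhibitors Spry4 (17676 bp) and Spry2 (7485 bp), the TGF-beta family ligands Lefty2 (16700 bp) and Nodal (10916 bp), the LIF target Socs3 (15794 bp), the inhibitory Smad gene Smad7 (13906 bp), the hedgehog receptor gene Ptch1 (9859 bp) and the Notch target Hes1 (8048 bp). All 8 were in domains with H3K27ac only, the class of 78.6% of all domains. H3K27me3 covered 15.7% of the Lefty2 and 17.9% of the Ptch1 domain, too little to count as present. Polycomb complex and related genes gave 6 of 27 (22.2%), among them Kdm6b, Ring1 in a domain with H2-Ke6, Rxrb and Slc39a7 (10918 bp), Phc1 (10893 bp), Mtf2 (9597 bp) and Jarid2. Of the H3K4 methylation genes, Setd1b and Cxxc1 (8119 bp) were in domains, 2 of 14.

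Developmental gene families gave small counts, to be read against the 2.81% of all coding genes that lay in domains. Domains held 7.32% of the Fox genes, 6.67% of the T-box genes, 5.71% of the germ-layer regulators and 5.26% of the Wnt ligands. They held 2.5% of the other homeobox genes named below. Of 5 Gata genes 2 lay in a domain (40%). None of 39 Hox genes did, and only 2 of them were in any H3K4me3 peak of this set. In families of this size a count of 0 is not read as a share below 2.81%. None of 18 Sox or 9 Pax genes was in a domain, although 14 and 5 of them were in some peak. From the germ-layer regulators Gata2 (8410 bp) and Gata3 (8098 bp) were members (2 of 35), from the other homeobox families searched (Dlx, Lhx, Irx, Nkx and the sine oculis homologues) Dlx2 (1 of 40, 9281 bp), from the T-box genes Tbx3 (1 of 15), from the Wnt ligands Wnt5a (1 of 19, 8560 bp) and from the Fox genes Foxd3, Foxp4 (9656 bp) and Foxh1 (7521 bp) (3 of 41). All of these but Foxh1 carried H3K27me3 over at least 20% of the domain, as did 18.8% of all domains. Of 20 muscle identity genes 3 were in any H3K4me3 peak and none in a domain. Of 20 macrophage identity genes 8 were in any peak and 1, Cd68, in a domain of 14912 bp that also held Eif4a1, a translation factor gene of all cells, and Mpdu1.

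H3K18la lay under nearly all domains. The site of highest H3K4me3 signal was inside an H3K18la peak in 463 of 500 domains (92.6%, 89.97-94.6), against 55.8% of all H3K4me3 peaks and 54.0% of the others (difference 38.6 points, 35.8-40.8). With only the 5000 H3K18la peaks of largest total signal the difference was 59.7 points (56.0-63.0). Total signal is a sum over the peak, which favours wide peaks. Over at least 20% of their bases 96.6% of domains had H3K18la, against 57.8% of all peaks. Bases covered by H3K18la averaged 85.2% per domain, with a median of 97.6%. The next 500 peaks by width had H3K18la at the highest signal in 91.2% (difference 1.40 points, -2.02 to 4.84), and the share fell with width to 37.8% in the narrowest bin. The high share was therefore not particular to the 500 members. In the other cell types the 500 widest peaks of each set also had H3K18la of their own cells more often than the rest, with 83.8% against 52.6% in mESC-2i, 86.8% against 45.4% in GAS and 80.6% against 60.2% in PIM.

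**Figure D3:**
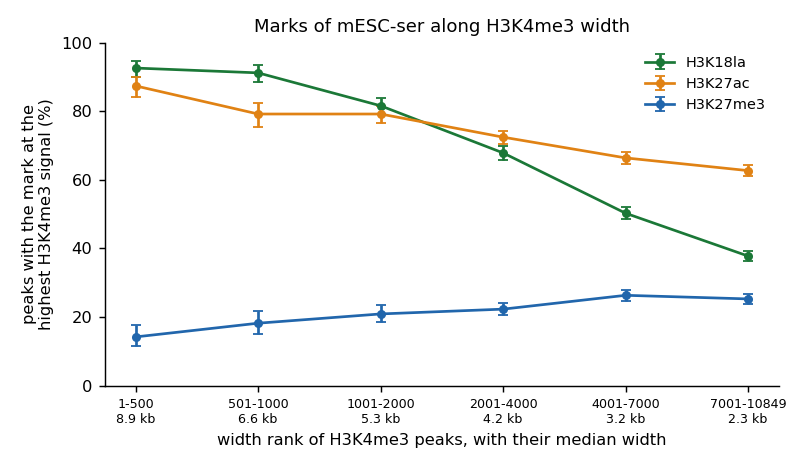
Percent of mESC-ser H3K4me3 peaks with an H3K18la, H3K27ac or H3K27me3 peak at their highest H3K4me3 signal, in bins of width rank with the median width of each; bars are 95% Wilson intervals. From the narrowest bin to the domains H3K18la goes from 37.8 to 92.6%, H3K27ac from 62.7 to 87.4% and H3K27me3 from 25.3 to 14.2%.

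H3K27ac was at the highest signal in 437 of 500 domains (87.4%, 84.2-90.03), against 68.9% of all peaks and 68.0% of the others (difference 19.4 points, 16.0-22.1). With only the 5000 H3K27ac peaks of largest total signal it was 40.4 points (36.1-44.3). The next 500 peaks gave 79.2%, which was lower by 8.20 points (3.59-12.8). At 20% of the bases 452 domains had H3K27ac (90.4%), against 70.6% of all peaks. H3K27ac covered less of a domain than H3K18la did, 61.3% of the bases on average. Of all bases in domains, 60.1% had both marks, 26.6% had H3K18la without H3K27ac, 2.86% had H3K27ac without H3K18la and 10.5% had neither. The 2 sets were called on coverage that was not scaled for depth, and the H3K18la set held 81.3 Mb of peaks against 31.6 Mb in the H3K27ac set, so the part of set size in this difference was not tested. Of the 4 largest H3K18la peaks over domains, 3 spanned more than 1 of them. One of 59231 bp covered the domain of Mymx and Slc29a1 (13048 bp) and that of Hsp90ab1 and Slc35b2 (13040 bp), and one of 55870 bp covered Irf2bpl and a domain nearest to Cipc (9365 bp). The others were a peak of 52835 bp over a domain nearest to Lrrc74a (8776 bp) and one of 49949 bp over 3 domains at Rara, the widest of 11259 bp.

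H3K27me3 was less frequent on domains. It was at the highest H3K4me3 signal in 71 of 500 (14.2%, 11.4-17.5), against 23.8% of all peaks and 24.2% of the others (difference -10.0 points, -13.0 to -6.61). The next 500 peaks gave 18.2% (difference -4.00 points, -8.57 to 0.58). Over at least 20% of the bases 94 domains had it (18.8%), against 26.1% of all peaks. In mESC-2i, GAS and PIM the same comparison of the 500 widest peaks with the rest, for H3K27me3 of their own cells, gave intervals that included 0, with differences of 3.16 (-0.23 to 6.98), -0.12 (-2.38 to 2.75) and 1.56 points (-1.59 to 5.20).

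Taking 20% of the bases as presence, 393 domains had H3K27ac only, 59 had both marks, 35 had H3K27me3 only and 13 had neither. H3K18la was present in 391 of the 393, in all 59, in 24 of the 35 and in 9 of the 13. The 35 domains with H3K27me3 only included those of Ndufa4l2 and Shmt2 (15989 bp), Foxd3, the transcriptional corepressor gene Skor1 (10334 bp), the neuronal repressor gene Scrt1 (10175 bp), the netrin receptor gene Unc5b (10043 bp), Cilp2 (10002 bp) and a domain shared by the Notch target Hes5 and Pank4 (9375 bp). Further down stood Dlx2, Gbx2 (9054 bp), Wnt5a, Gata2, Tbx3, Gata3, Fgf9 (7825 bp), Fzd7 (7659 bp), Egr3 (7589 bp) and Pcdh8. H3K27ac in this class was below the 20% limit but not always absent. It covered from 10.6% (Foxd3) to 17.9% (Scrt1) of the domains of Ndufa4l2 and Shmt2, Foxd3, Scrt1, Unc5b, Cilp2, Gbx2, and Hes5 and Pank4. It covered 0% of Skor1, Dlx2, Wnt5a, Gata2, Tbx3, Gata3 and Pcdh8. H3K27me3 covered 100% of Skor1, Unc5b and Cilp2. These domains were richer in CpG, with a median of 4.49 CpG per 100 bp over their whole length against 2.47 in the 393 with H3K27ac only and 3.33 in those with both. The GC box was in 29 of 35 of their windows (82.9%, 67.3-91.9) and in 59.8% (54.9-64.5) of the windows of the H3K27ac-only domains.

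The 59 domains with both marks were led by Kdm6b, in which H3K27ac covered 66.3% and H3K27me3 29.5% of the bases. Next were a region near Sfi1 (15311 bp), the cluster of Mir183 and Mir96 (14989 bp), Acbd4 and Plcd3 (14106 bp), AC124108.1 and Lemd1 (14017 bp) and Tnrc18 (13753 bp). In Tnrc18 the order was the reverse of Kdm6b, with 33.5% H3K27ac and 86.2% H3K27me3. Pooled cells cannot show whether both marks lay on the same DNA molecules. The region near Sfi1 stood apart from all domains by its maximum signal, 4537 against at most 994 in the other 499, and was widest of the domains in both GAS (21995 bp) and PIM (27394 bp). Peaks of all 14 other lists overlapped it, in 13 of them over at least 50% of its bases, and whether it is a region prone to mapping errors was not tested. Without it the 12 main shares and differences all stayed inside their intervals.

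**Figure D4:**
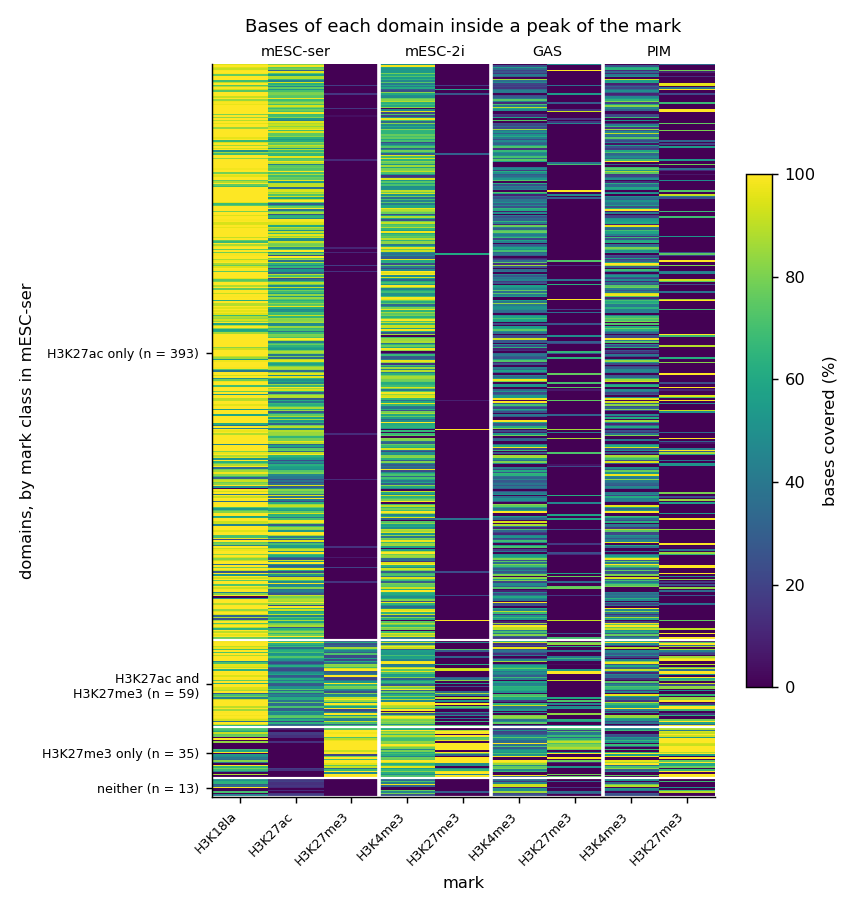
Percent of the bases of each of the 500 domains (rows, grouped by mark class in mESC-ser and sorted by width within a class) covered by peaks of the mark named below, in mESC-ser and at the same places in mESC-2i, GAS and PIM. The 393 H3K27ac-only rows are mostly yellow for H3K18la and dark for H3K27me3, and of the 35 H3K27me3-only rows 6 have no H3K27me3 in mESC-2i, 10 none in GAS and 4 none in PIM.

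H3K27me3 at the same places in other cells followed its presence in mESC-ser. In mESC-2i it covered at least 20% of the bases in 57.4% of the 94 domains with it (47.4-67.0) and in 2.46% of the 406 without. In GAS the shares were 43.6% (34.0-53.7) and 12.6% (9.68-16.1), and in PIM 74.5% (64.8-82.2) and 23.4% (19.5-27.7). The intervals did not overlap in any of the 3. In the 35 domains with H3K27me3 only, the median covered share was 95.3% in mESC-2i, 52.3% in GAS and 92.2% in PIM, with no H3K27me3 at all in 6, 10 and 4 of them.

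At the places of the domains H3K4me3 itself was nearly always called in mESC-2i and mostly called in GAS and PIM. A peak overlapped 485 of 500 domains in mESC-2i (97.0%, against 97.2% of all mESC-ser peaks), 429 in GAS (85.8%, against 86.2%) and 420 in PIM (84.0%, against 79.5%). An overlap of 1 bp is easier to reach for a wide region. The site of highest mESC-ser signal, which does not depend on width in this way, was in an H3K4me3 peak of mESC-2i in 93.6% of domains (96% of all peaks; difference from the others -2.53 points, -5.06 to -0.66), of GAS in 77.4% (82.4% of all peaks; -5.27 points, -9.21 to -1.75) and of PIM in 73.0% (74.1% of all peaks; -1.14 points, -5.28 to 2.66). The domains were thus lower than the other peaks in mESC-2i and GAS, while in PIM the interval included 0. Peaks of the other cells covered less of the domains. At least 50% of the bases were in an H3K4me3 peak for 75.2% of domains in mESC-2i (71.2-78.8; 89.2% of all peaks), 35.4% in GAS (31.3-39.7; 69.7% of all peaks) and 36.4% in PIM (32.3-40.7; 68.2% of all peaks). The domains were chosen for their width in mESC-ser and compared with sets that took no part in the choice, so these lower shares describe the members and are not read as a difference between the cells. When the 500 peaks of largest total signal were taken in place of the widest, the shares were 92.6, 60.8 and 61.2%. With only the 5000 peaks of largest total signal of every other list they were 54.2, 18.6 and 23.6%.

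Domains without a peak in the other set were left out here, which kept 485 domains for mESC-2i, 429 for GAS and 420 for PIM. The widest overlapping H3K4me3 peak had a median of 5221 bp in mESC-2i, 3118 bp in GAS and 3571 bp in PIM. These were 53.1, 32.3 and 36.9% of the domain (medians of the ratio). In the other mESC-ser peaks with an overlapping peak the same ratios were 85.3, 78.7 and 92.9%. A peak wider than the domain was found for 35 domains in mESC-2i, 12 in GAS and 23 in PIM. A domain was split into 2 or more peaks in 179, 240 and 167 cases. Among the 500 widest peaks of the other sets, 199 domains (39.8%) overlapped one of mESC-2i, 58 (11.6%) one of GAS and 53 (10.6%) one of PIM, against 4.22, 3.16 and 3.04% of all mESC-ser peaks. Seen from those sets, 40.4, 12 and 10.6% of their 500 widest peaks overlapped a domain.

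**Figure D5:**
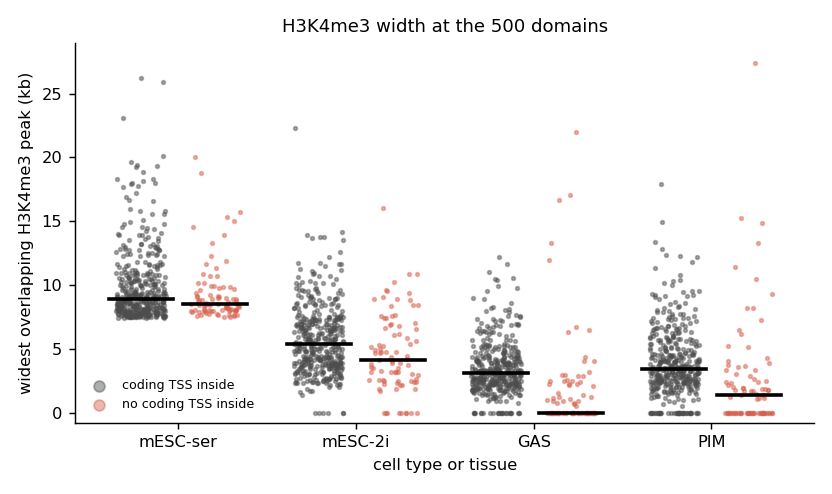
Width in kb of the widest H3K4me3 peak over each of the 500 domains in mESC-ser and at the same places in mESC-2i, GAS and PIM, with domains split by whether they hold a coding TSS; each point is a domain, a point at 0 has no peak, and black lines are medians. In GAS the median, with points at 0 counted, is 3087 bp with a coding TSS and 0 bp without.

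The domains with the widest H3K4me3 in GAS, after the region near Sfi1, were one 83701 bp from the Ezh2 TSS (7968 bp in mESC-ser, 17024 bp in GAS, 15220 bp in PIM), one inside Bcl6 (8050 bp in mESC-ser, 16654 bp in GAS) and the one with the TSS of the nuclear long non-coding RNA Neat1 (13304 bp in mESC-ser, 13276 bp in GAS). Tnrc18 (12159 bp in GAS), the Malat1 domain (15758 bp in mESC-ser, 11935 bp in GAS), Rhof and Setd1b (11610 bp) and Klf9, a glucocorticoid target (11026 bp), followed. Malat1 and Neat1 are abundant nuclear RNAs of most cell types. In PIM the widest were again the regions near Sfi1 and Ezh2, and with them Zfp36, which destabilises cytokine mRNAs (17928 bp against 7490 bp in mESC-ser), Irf2bpl (14923 bp), a domain in Tspan14 (14874 bp against 9867 bp), the AP-1 gene Junb (13380 bp against 12278 bp), a peak at Zbtb7b (13304 bp) and the survival gene Mcl1 (12859 bp against 10471 bp). PIM peaks covered 24.5% of the bases of the mESC-ser domain at Zbtb7b.

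H3K4me3 in all 3 other sets was found for 399 of 500 domains (79.8%), against 76.6% of all mESC-ser peaks. A further 49 domains (9.80%, against 10.3%) had it in mESC-2i but not in GAS or PIM, and 6 (1.2%, against 1.43%) in none of the 3. These counts rest on an overlap of 1 bp, which favours wide regions. The widest with no H3K4me3 in either GAS or PIM were Trim71, the domain in the Gse1 body, Tdh, the threonine dehydrogenase gene of mouse stem cells (14567 bp), one nearest to Col18a1 (14561 bp), Esrrb, one in Cdh1, the E-cadherin gene (13896 bp), one nearest to Ranbp17 (12254 bp) and one in the FGF target Etv5 (11887 bp). All 8 kept a peak in mESC-2i, from 3202 bp (near Col18a1) to 13758 bp (Tdh). Of the pluripotency factors in domains, Esrrb, Fgf4 and Dppa5a had no H3K4me3 in GAS or PIM, and Sall4 and Tbx3 had none in PIM. At Trim71 the bases were covered by H3K27me3 to 48.1% in GAS and 34.5% in PIM, and at Tdh to 92.5 and 100%. Esrrb had 16.8% in GAS, the domain in Cdh1 16.2% and the one nearest to Ranbp17 38.5%, each with 0% in PIM. The domains in the Gse1 body, nearest to Col18a1 and in Etv5 had 0% in both. Over all domains, H3K27me3 covered 20% of the bases in 38.0% (27.6-49.7) of the 71 without H3K4me3 in GAS and 15.2% (12.1-18.8) of the 429 with it. In PIM it did so in 56.2% (45.3-66.6) of the 80 without and 28.6% (24.5-33.1) of the 420 with it.

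Only 15 domains had no H3K4me3 in mESC-2i. The widest were Nfic (14773 bp), the hedgehog effector gene Gli1 (9030 bp), one nearest to Rybp (8922 bp), one in Myrf (8441 bp), one in the Trim71 body (8439 bp), one in Slc37a1 (8427 bp), one in Camta1 (8140 bp) and the narrowest of the Rara domains (8094 bp). Nfic and Gli1 had peaks in GAS (2647 and 1341 bp) and PIM (7172 and 2122 bp). H3K27me3 at 20% of the bases in mESC-2i was found in 2 of these 15 domains and in 12.8% of the 485 others. The mESC-2i set held more H3K4me3 peaks than the mESC-ser set.

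Domains with H3K27me3 in mESC-ser were more often covered to 50% by H3K4me3 in mESC-2i, 84.0% against 73.2%, a difference of 10.9 points (1.27-18.4). In GAS the shares were 45.7% (36.0-55.8) against 33.0% (28.6-37.7), a difference of 12.7 points (1.95-23.7). In PIM the shares were 41.5% and 35.2%, and the interval of the difference included 0 (6.27 points, -4.30 to 17.3). The difference in GAS was 3.57 points (-10.1 to 19.6) in the 250 widest and 4.91 points (-5.83 to 14.8) in the 500 peaks of largest total signal, and there its interval included 0 as well. In mESC-2i these gave 7.88 points (-6.82 to 18.2) and 4.37 points (-1.82 to 8.30), and both intervals included 0. Median domain widths were 8185 bp with H3K27me3 only, 8972 bp with both marks and 8922 bp with H3K27ac only. A wider domain is harder to cover to 50%, and the part of width in these differences was not tested.

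Domains with and without a coding TSS differed in the other cells. The 86 without one were a median of 20510 bp from the nearest, with 43 in the body of a coding gene and 38 holding a TSS of another transcript, among them Malat1, Neat1, Sox2ot and the microRNA genes Mir183 and Mir124a-1. An H3K4me3 peak was present in GAS at 46.5% of these 86 (36.4-57.0) and at 94.0% (91.2-95.9) of the 414 with a coding TSS, a difference of 47.4 points (36.6-57.8). In PIM the shares were 55.8% (45.3-65.8) and 89.9% (86.6-92.4), and in mESC-2i 89.5% (81.3-94.4) and 98.6% (96.9-99.3). Of the 49 domains shared with mESC-2i alone, 32 had no coding TSS. This split by coding TSS was not made for the other mESC-ser peaks, so whether the gap is particular to wide peaks was not tested.

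The marks of mESC-ser itself showed no such gap between the 86 and the rest. H3K18la was present in 98.8% (93.7-99.8) against 96.1% (93.8-97.6), H3K27ac in 89.5% (81.3-94.4) against 90.6% (87.4-93.0) and H3K27me3 in 17.4% (10.9-26.8) against 19.1% (15.6-23.1). Each pair of intervals overlapped. They were poorer in CpG, with 1.69 per 100 bp against 2.75 over the whole domain and 2.67 against 7.00 in the window at the highest signal. The GC box was in 37.2% (27.7-47.8) of their windows against 66.7% (62.0-71.0), and TATAAA in 10.5% (5.60-18.7) against 3.86% (2.39-6.19). The window of the Sox2 region printed above is one of them, and held TATAAA and CACGTG once each. At this region, next to the gene of the pluripotency factor Sox2, H3K18la covered 99.0% and H3K27ac 33.3% of the bases in mESC-ser. The widest H3K4me3 peak there was 6595 bp in mESC-2i, 2903 bp in GAS and 2497 bp in PIM, and H3K27me3 covered 100% of the region in GAS and 78.4% in PIM.

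Over all domains the CpG content was below that of the other peaks. The median was 2.63 per 100 bp over the whole domain against 3.63, and 6.33 against 7.33 in the window of equal length at the highest signal. With a coding TSS the window medians were 7.0 in domains and 8.0 in the other peaks. A total of 22 domains had another H3K4me3 peak within 1000 bp, and 22 pairs of domains lay at most 10000 bp apart. Joining peaks at most 1000 bp apart in every H3K4me3 set before ranking left the 12 main shares and differences within their intervals. The other values were not computed this way.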

How the data were processed

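The data were 24 deposited CUT&Tag peak lists of 41 samples, of which 15 lists were used: H3K4me3, H3K18la and H3K27me3 in mESC-ser, mESC-2i, GAS and PIM, and H3K27ac in mESC-ser, GAS and PIM. The other lists were not analysed here. Per the submitters' processing notes, reads were trimmed (Trim Galore 0.6.6), aligned to mm10 (Bowtie2 2.4.4), converted to coverage (SAMtools 1.13, bedtools 2.30) and called with SEACR 1.3 in stringent mode as the top 1% of regions, after replicates had been combined. The deposited columns give the total and the maximum signal (fragment coverage) of each peak. The authors deposited whole numbers, so coverage was not scaled for depth, and no signal value is compared between lists. Depth per sample is not in the lists and read totals were not used here, whether duplicates were removed was not stated, and blacklist filtering was described for later steps only. The stem cell lists without a medium in their names were taken as mESC-ser from the sample descriptions.

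Coding TSS were those of protein-coding transcripts of GENCODE M21 on GRCm38 (mm10), and sequences came from the GRCm38 genome. A mark was present when its peaks covered 20% of a domain. A domain was named by the coding genes with a TSS inside or otherwise by the nearest. Named domains were the 12 widest, the 3 on either side of the limit, the widest of each mark class (8, 8 and 6), the 8 widest lacking H3K4me3 in mESC-2i or in both GAS and PIM, the 8 with the widest peak in GAS and in PIM, up to 6 with the widest H3K18la, and the members of the gene lists. Some items that these rules select are not reported here. The domains, lists and rules were chosen with earlier results of these data known. Python 3.11.15, numpy 2.4.6, pandas 2.3.3, scipy 1.17.1 and matplotlib 3.10.9 were used, and the interval functions were tested on simulated data against bedtools 2.31.1.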

Additional observations from a re-analysis of the deposited data

Results flagged for a closer look

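Outside chromosomes 1 to 19, where no domain was taken, 8 of 159 H3K4me3 peaks of mESC-ser were at least as wide as the narrowest domain (7445 bp). Of these, 5 lay on chromosome X, 2 on Y and 1 on mitochondrial DNA, and the widest, on X, spanned 11536 bp. They were singled out because they lie in data that the comparisons did not use, and no control peak set was used here.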

How the results depend on the processing

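Of 90 alternative values of the 12 main results, 62 stayed inside the interval of the value reported, 28 moved outside it and none whose interval excluded 0 changed sign. With the 250 widest peaks, a coding TSS lay in 86.4% of domains, H3K27ac in 94.0%, H3K4me3 of GAS covered 50% of the bases in 29.6%, and H3K18la at the highest signal differed by 42.4 points from the other peaks. With the 1000 widest, H3K27ac differed by 15.8 points and 43.1% were covered to 50% in PIM. Ranking by total signal gave a coding TSS in 90.4%, differences of 43.4 (H3K18la) and 26.9 points (H3K27ac), H3K27ac in 97.2%, and 92.6, 60.8 and 61.2% covered to 50% in mESC-2i, GAS and PIM. Keeping the 5000 peaks of largest signal of every other list gave differences of 59.7 (H3K18la) and 40.4 points (H3K27ac), H3K27me3 in 13.0% and H3K27ac in 78.4% of domains, and 54.2, 18.6 and 23.6% covered to 50%. Counting any overlap gave 97.0, 85.8 and 84.0%. With 1 bp as presence H3K27ac was in 94.2% of domains, and with 50% of the bases H3K27ac was in 69.2% and H3K27me3 in 13.0%. All annotated transcripts gave a TSS in 90.4%, and comparing only peaks with a coding TSS gave 42.9 points for H3K18la. The cause of these shifts was not tested beyond what each setting changes. The difference in PIM by H3K27me3, whose interval includes 0, was -3.19 points in the 250 widest and -4.22 points in the ranking by total signal. In GAS the interval of this difference also included 0 with the 5000 peaks of largest total signal (8.68 points). In mESC-2i it did so with 1 bp (8.48 points) or 50% of the bases (10.8 points) as presence of H3K27me3. Leaving out the region near Sfi1, and all alternatives of the mESC-2i difference by H3K27me3, were added after seeing the data. No paired analysis was possible because the lists pool the replicates and carry no replicate numbers, and for the same reason no replicate could be left out. The absence of a peak depends on the depth of each list, which was not used here, and says only that no peak was called.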
